A study of Mus musculus with 8 samples.

Results

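Genes that build ribosomes were followed in mouse CD3 T cells treated with concanavalin A (ConA), with a poly-L-lysine (PLL) surface, or with both. The set was a given list of 47 genes for ribosome biogenesis and nucleolar factors. Its members were named by function and not by a rule on measured values. The list was, however, chosen with earlier results of these data known. A gene counted as measured when at least 1 probe set was annotated to it alone, and the brightest probe set on average stood for the gene. This gave 44 measured members of 22180 named genes. Fbl, Npm3 and Tsr1 were not analysed here. All 44 passed the filter on low values, which 13428 genes passed and which asked that the highest of the 8 values reach the median of the whole table (3.62).

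The RNA came from C57BL/6J mice, which were 8-week-old females per the study's methods, and the CD3 T cells had been isolated by negative selection from lymph nodes and spleen. The 8 Affymetrix Mouse Gene 2.0 ST arrays held 1 group each: naive cells in steady state (labelled as control and taken as 0 h), ConA 3 h, PLL 3 h, ConA+PLL 3 h, naive 24 h, ConA 24 h, PLL 24 h and ConA+PLL 24 h. ConA is a plant lectin that binds and crosslinks glycoproteins of the T cell surface, and PLL is a polycation that holds cells on a coated plate. Stimulation lasted 3 h in every treated group, and cells of the 24 h groups were then washed and cultured for a further 21 h, so the 24 h arrays do not show 24 h of continuous ConA. No untreated culture of 3 h was measured, and culture time and treatment cannot be told apart where a 3 h array is set against the naive 0 h array. With 1 array per group there are no replicates, so no difference below carries an error or a p-value.

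Ribosomes are assembled in the nucleolus, where RNA polymerase I transcribes the precursor of most ribosomal RNA. Small nucleolar ribonucleoproteins (snoRNPs) guide chemical modification of that precursor, the box C/D class by methylation of the ribose and the box H/ACA class by conversion of uridine to pseudouridine. Large sets of assembly factors then fold, cut and export the small and the large subunit. Resting T cells make few ribosomes, and growth before division is known to raise the demand for them.

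Values are deposited log2 levels, and a difference is the level on the first named array minus that on the second. A difference of 1 is 2-fold and one of 0.58 is 1.5-fold. Medians of the arrays over all probe sets lay between 3.53 (ConA+PLL 3 h) and 3.69 (naive 0 h). The 11 measured of 12 T cell markers reached at least 4.10 on every array, a level that the highest value of 95% of 1390 smell and pheromone receptor genes did not exceed. Of the 5 B cell, 7 monocyte and macrophage, 4 dendritic cell, 3 platelet and 5 NK cell markers measured, at most 2, 2, 0, 2 and 3 did so on any array, and the erythroid markers were not analysed here. At least 2 of the 5 NK markers reached 4.10 on every array, and the highest of them lay between 8.47 and 9.76. The NK markers Ncr1 and Klrb1c were under 4.10 on every array. Summed log2 levels of the NK markers were 25.2 with ConA and 23.8 with ConA+PLL at 3 h, and 26.4 and 24.7 at 24 h. The lowest differences of ConA+PLL from ConA were those of Ncr1 at 3 h (-0.86) and Klrb1c at 24 h (-1.05). Both markers lay under 4.10, so the lower sums rest partly on values at background level. At 24 h Eomes was the 1 NK marker above 0, by 0.86. The summed levels of 12 genes known to respond to cell handling (immediate early and heat shock genes) were 88.1 on the naive 0 h array, 94.0 with ConA, 73.1 with PLL and 94.7 with ConA+PLL at 3 h, against 61.4 to 66.1 at 24 h. These sums were thus low with PLL alone at 3 h and on all 24 h arrays, and their part in the results was not tested. The sums hide genes that moved in opposite directions. With ConA+PLL at 3 h against naive 0 h, 6 of the 12 were at least 1.5-fold higher, led by Egr1 (4.29). In the same comparison 4 were at least 1.5-fold lower, with Hspa1b lowest (-1.52). Egr1 was also higher with ConA alone at 3 h, by 3.20, but with PLL alone by only 0.19. The sums therefore cannot tell handling from the response to ConA. In a bulk sample, fewer cells of a type and less RNA per cell cannot be told apart.

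Promoter windows were read because the levels of most members ran together over the arrays. RefSeq (GRCm38.p6) gave windows of 300 bases, 250 before the transcription start and 50 from it on, for 41 of the 47 listed genes. The E-box CACGTG, a palindrome and a motif that MYC with MAX is known to bind, was in the windows of 10 of the 41 (24.4%) and of 8.91% of 17492 protein-coding genes. CCGGAAG or its reverse complement, the core of many ETS factor motifs, was found for 13 members (31.7%) and 12.9% of protein-coding genes. The GC-box GGGCGG, on either strand, was found for 33 (80.5%) and 49.2%, and TATAAA, on either strand, for 2 (4.88%) and 14.8%. Median GC content was 59.3% in the members' windows and 56.3% in those of protein-coding genes. The 10 genes with the E-box were Nop2, Tma16, Utp18, Utp20, Ltv1, Wdr43, Pes1, Mybbp1a, Nle1 and Tsr1. A match describes letters and shows no binding. The windows of Nop2 and Utp18, with the E-box before the start, and of Tma16 and Wdr43, with it just after the start, are printed below as 280 bases each, 5′ to 3′ on the gene's own strand, with the E-box in capitals.
Nop2 (chr6:125131633-125131912, plus strand): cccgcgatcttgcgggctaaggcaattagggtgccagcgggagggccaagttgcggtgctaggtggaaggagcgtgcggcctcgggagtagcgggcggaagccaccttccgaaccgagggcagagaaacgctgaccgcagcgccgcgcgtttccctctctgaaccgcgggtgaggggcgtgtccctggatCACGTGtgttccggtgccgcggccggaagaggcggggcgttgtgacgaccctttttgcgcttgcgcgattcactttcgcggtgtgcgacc
Utp18 (chr11:93885737-93886016, minus strand): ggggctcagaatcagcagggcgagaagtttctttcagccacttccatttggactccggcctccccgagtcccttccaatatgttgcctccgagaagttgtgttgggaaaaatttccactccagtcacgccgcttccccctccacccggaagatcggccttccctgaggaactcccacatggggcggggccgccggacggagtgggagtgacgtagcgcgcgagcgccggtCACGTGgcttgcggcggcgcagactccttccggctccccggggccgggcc
Tma16 (chr8:66486501-66486780, minus strand): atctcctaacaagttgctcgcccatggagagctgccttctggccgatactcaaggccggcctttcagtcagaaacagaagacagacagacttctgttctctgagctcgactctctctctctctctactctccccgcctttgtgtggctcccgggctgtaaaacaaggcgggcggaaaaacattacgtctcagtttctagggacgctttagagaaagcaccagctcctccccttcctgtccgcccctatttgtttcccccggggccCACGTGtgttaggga
Wdr43 (chr17:71615965-71616244, plus strand): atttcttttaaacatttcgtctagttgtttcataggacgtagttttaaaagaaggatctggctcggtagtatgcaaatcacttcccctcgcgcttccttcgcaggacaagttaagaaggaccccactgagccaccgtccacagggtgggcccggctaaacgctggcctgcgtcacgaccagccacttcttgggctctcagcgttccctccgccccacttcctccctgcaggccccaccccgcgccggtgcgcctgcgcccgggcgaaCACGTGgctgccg
Counted from the start, the E-box began at -60 in Nop2, -20 in Utp18, 15 in Tma16 and 17 in Wdr43. The ConA+PLL minus ConA difference at 3 h had a median of 0.61 (0.23 to 1.39) over the 9 measured members with the E-box and of 0.43 (-0.996 to 0.82) over the 30 members whose window lacked it. At 24 h the medians were 0.33 and 0.29. Both ranges overlapped at both times. The 1.39 was that of Tma16, which was 0.95 counted from 4.10, and the -0.996 that of Nop56. For ConA+PLL minus naive the medians with and without the E-box were 0.64 and 0.67 at 3 h, and 0.36 and 0.41 at 24 h. For ConA+PLL minus PLL they were 1.03 and 0.87, and 0.33 and 0.41, so the order depended on the control.

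The ribosome biogenesis genes stood highest in cells given ConA on PLL for 3 h. Of the 44 members, 36 had their highest value of all 8 arrays there, against 13.8% of the filtered genes, and 3 had it on the ConA+PLL 24 h array, against 24.8%. With each gene centred on its own mean, the median over members was 0.61 on the ConA+PLL 3 h array, 0.13 with ConA and -0.19 with PLL at 3 h, and -0.02 on the naive 0 h array. At 24 h it was 0.10 with ConA+PLL and between -0.24 and -0.16 on the other arrays. The lowest value fell on the PLL 3 h array for 15 members, against 11.9% of the filtered genes, and on the PLL 24 h array for 10, against 10.4%. It fell on the ConA+PLL 3 h array for 0 members but for 24.6% of the filtered genes, the largest share of any array. At 3 h the ConA+PLL array was above the ConA, PLL and naive 0 h arrays for 40 of 44 members, an order that 25.02% of the filtered genes had. Nop56, Npm1, Utp14a and Wdr12 were the exceptions. At 24 h the ConA+PLL array was above the other 24 h arrays for 30 of 44, an order that 41.7% of the filtered genes had. Both orders held for 28 of 44 members and 15.2% of the filtered genes.

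**Figure D1:**
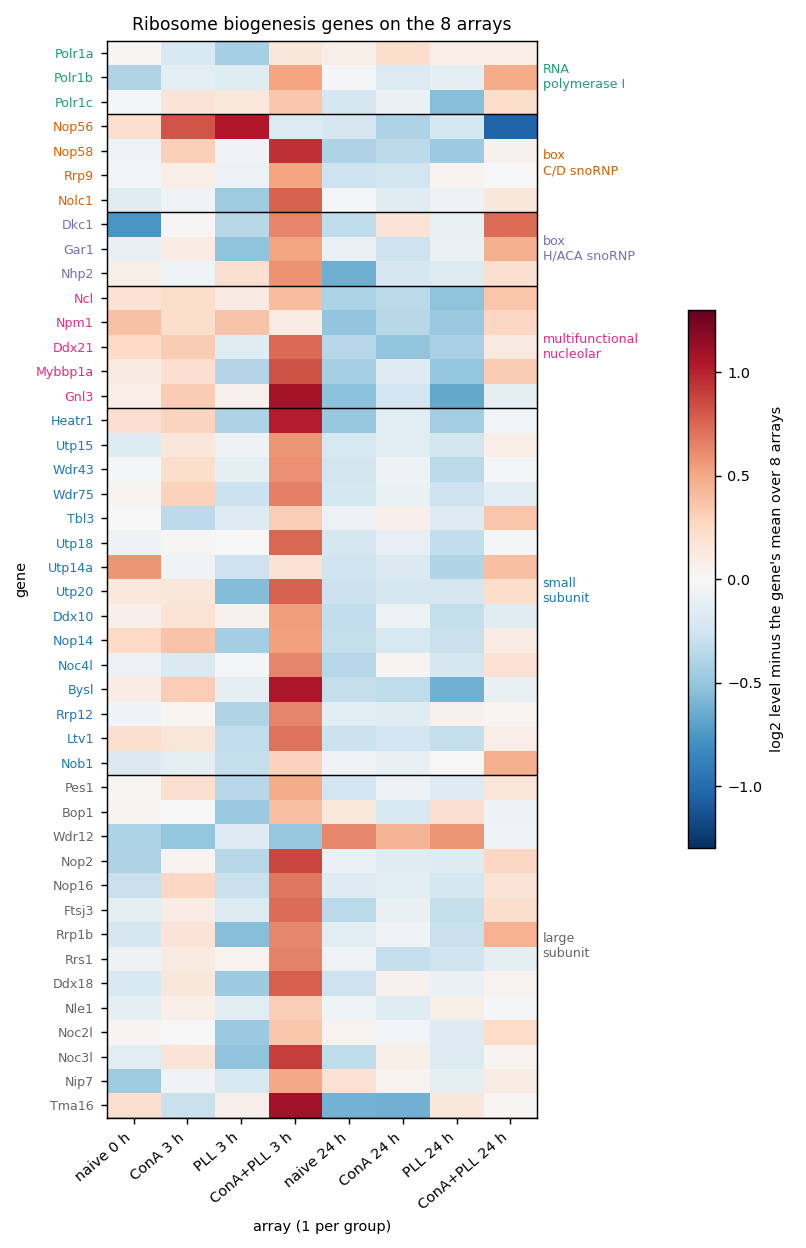
Each row is 1 of the 44 members, grouped by role, and each column 1 array; colour gives the log2 level minus the gene's mean over the 8 arrays, red above and blue below. The ConA+PLL 3 h column is red for nearly every gene, with Nop56 and Wdr12 the blue exceptions, and 36 of 44 members have their highest value there.

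What PLL added to ConA was asked by setting ConA+PLL against ConA at the same time. At 3 h, 42 of 44 members lay above 0, against 47.1% of the filtered genes. Their median difference was 0.49, where the median of the filtered genes was -0.02. A difference of at least 1.5-fold upward was seen for 19 of 44 members (3.54% of the filtered genes), and of at least 2-fold for 1, Tma16 (0.573%). The members below 0 were Nop56 at -0.996, which lay just short of 2-fold, and Npm1 at -0.13.

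**Figure D2:**
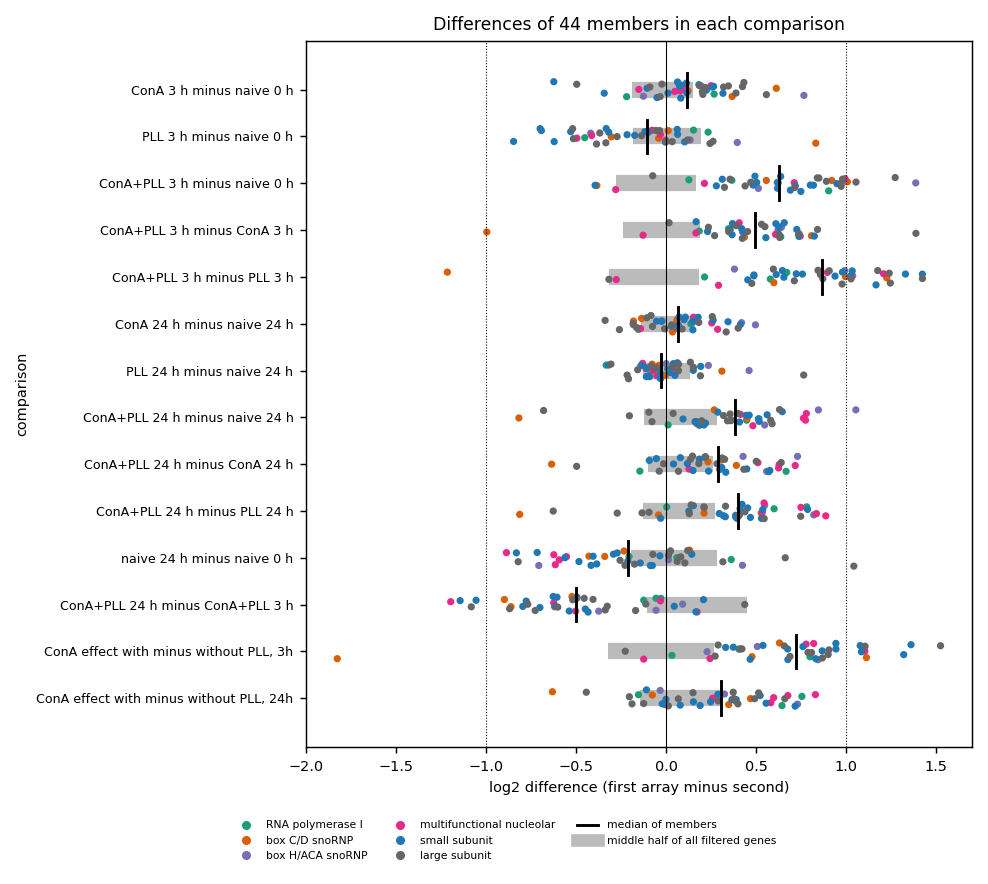
Each point is 1 of the 44 members, coloured by role, in 1 comparison per line; the horizontal axis is the log2 difference, black bars mark the median of the members, grey bars span the lower to the upper quartile of the filtered genes, and dotted lines mark 2-fold. The points of ConA+PLL at 3 h lie mostly to the right of the grey bar whichever array is the control, while those of PLL minus naive at 24 h lie around 0, and Nop56 stands alone at -1.83 where the ConA effect on PLL is set against that off PLL at 3 h.

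RNA polymerase I was represented by Polr1a and Polr1b, which form its catalytic core, and by Polr1c, a subunit shared with RNA polymerase III. All 3 were higher with ConA+PLL than with ConA at 3 h, by 0.35, 0.64 and 0.18. Polr1b had levels of 5.08 on the naive 0 h array, 5.34 with ConA, 5.31 with PLL and 5.98 with ConA+PLL at 3 h. At 24 h it was at 5.44 in naive cells, 5.28 with ConA, 5.35 with PLL and 5.95 with ConA+PLL. Both ConA+PLL arrays were therefore above the other 6 for Polr1b, and the 2 ConA+PLL levels differed by only 0.03. Polr1c followed at 24 h with a difference of 0.31, whereas Polr1a was at -0.15.

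The box C/D factors other than Nop56 were higher with ConA+PLL at 3 h. Nop58, a core protein of these particles, was at 7.52 on the naive 0 h array, 7.88 with ConA, 7.53 with PLL and 8.52 with ConA+PLL at 3 h. Its 24 h levels were 7.18, 7.24, 7.10 and 7.63 in the same order of groups. Nolc1, a nucleolar phosphoprotein that binds snoRNPs, and Rrp9, a protein specific to the U3 snoRNP, were higher with ConA+PLL than with ConA by 0.81 and 0.43 at 3 h and by 0.31 and 0.23 at 24 h.

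Nop56, the partner of Nop58 in the same particle, ran the other way on the probe set that stood for it. Its levels were 8.02 on the naive 0 h array, 8.63 with ConA, 8.85 with PLL and 7.63 with ConA+PLL at 3 h. At 24 h they were 7.59 in naive cells, 7.41 with ConA, 7.58 with PLL and 6.77 with ConA+PLL, so that the ConA+PLL array was the lowest at each time. Nop56 has 2 more probe sets of its own, and they did not give 1 picture. One had 7.33, 7.45, 7.19 and 8.02 on the naive 0 h, ConA, PLL and ConA+PLL 3 h arrays and 7.15, 7.28, 7.30 and 7.47 on the 24 h arrays, with ConA+PLL highest at each time and differences from ConA of 0.56 and 0.19. The other had 7.01, 7.61, 7.39 and 7.22 and then 7.04, 6.91, 7.19 and 6.65, with differences of -0.38 and -0.27. The direction of Nop56 is thus unsettled in these data. A further probe set, annotated to both Nop56 and the small nucleolar RNA Snord57, was not used.

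The box H/ACA proteins Dkc1 (the pseudouridine synthase dyskerin), Gar1 and Nhp2 were higher with ConA+PLL than with ConA at both times, by 0.62, 0.42 and 0.64 at 3 h and by 0.56, 0.73 and 0.43 at 24 h. Gar1 was at 5.52 on the naive 0 h array, 5.71 with ConA, 5.10 with PLL and 6.13 with ConA+PLL at 3 h. Its levels at 24 h were 5.53 in naive cells, 5.35 with ConA, 5.53 with PLL and 6.08 with ConA+PLL. For Gar1 the ConA+PLL arrays were the 2 highest and PLL 3 h the lowest. Dkc1 had 5.43 on the naive 0 h array, 6.19 with ConA, 5.82 with PLL and 6.81 with ConA+PLL at 3 h. At 24 h it had 5.85, 6.34, 6.08 and 6.90 in naive, ConA, PLL and ConA+PLL cells. Dkc1 was the member with the largest difference from naive cells in 4 comparisons: ConA and ConA+PLL, each at 3 h and at 24 h.

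Among nucleolar proteins of several roles, nucleolin (Ncl) and nucleophosmin (Npm1), a chaperone pair of rRNA and of assembling ribosomes, had larger differences between ConA+PLL and ConA at 24 h than at 3 h. Ncl was at 9.02 on the naive 0 h array, 9.07 with ConA, 8.94 with PLL and 9.23 with ConA+PLL at 3 h, and at 8.43, 8.48, 8.31 and 9.20 on the naive, ConA, PLL and ConA+PLL 24 h arrays. Npm1 was at 9.56, 9.41, 9.56 and 9.28 at 0 h and 3 h and at 8.68, 8.83, 8.71 and 9.45 at 24 h, in the same order of groups. For both genes the naive, ConA and PLL arrays of 24 h lay below every 0 h and 3 h array, and the ConA+PLL 24 h array lay within the range of the 0 h and 3 h arrays. The difference of ConA+PLL from ConA was 0.16 at 3 h and 0.72 at 24 h for Ncl, and -0.13 and 0.63 for Npm1. A second, dim probe set of Npm1 gave 0.63 and 0.32, so the sign at 3 h and the order in time depend on the probe set. On that probe set the ConA+PLL 24 h level (4.19) also lay under every 0 h and 3 h level, the lowest being 4.38 with ConA. Ddx21, an RNA helicase that links RNA polymerase I transcription with rRNA processing, was higher by 0.41 and 0.62. Mybbp1a, a nucleolar MYB-binding protein, was higher by 0.61 and 0.51, and Gnl3 (nucleostemin), a nucleolar GTP-binding protein, by 0.74 and 0.13.

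All 15 small subunit factors were higher with ConA+PLL than with ConA at 3 h, with a median of 0.55, where 47.1% of the filtered genes lay above 0. At 24 h 13 of 15 were higher, with a median of 0.22, where 61.6% of the filtered genes lay above 0 and their median was 0.08. Noc4l, a partner of Nop14 in small subunit assembly as known from yeast, had the largest difference of the group at 3 h (0.82). Its levels were 4.98 on the naive 0 h array, 4.87 with ConA, 5.04 with PLL and 5.69 with ConA+PLL at 3 h, and 4.68, 5.09, 4.83 and 5.24 on the naive, ConA, PLL and ConA+PLL 24 h arrays. At 24 h the ConA level of Noc4l was close to that of ConA+PLL, with a difference of 0.15. Heatr1 and Utp18, components of the early processome that forms on the nascent precursor, each differed by 0.74 at 3 h and by 0.12 and 0.08 at 24 h. Bysl, which acts on late small subunit precursors, differed by 0.72 and 0.24. Nop14 (0.17), Utp14a (0.23) and Wdr75 (0.35) had the smallest differences at 3 h. Utp14a, a processome factor, was highest on the naive 0 h array at 5.99, and its other levels ran from 5.02 with PLL at 24 h to 5.80 with ConA+PLL at 24 h. Nob1, the endonuclease that cuts the small subunit rRNA to its mature end, differed by 0.42 at 3 h and 0.57 at 24 h.

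The 14 large subunit factors were also all above 0 at 3 h, with a median of 0.49, against the same 47.1%. At 24 h 11 of 14 were, with a median of 0.20, against 61.6%. Tma16, which binds late large subunit precursors in yeast, was at 4.16 on the naive 0 h array, 3.66 with ConA, 4.02 with PLL and 5.05 with ConA+PLL at 3 h. At 24 h it was at 3.34 with no treatment, 3.33 with ConA, 4.10 with PLL and 3.97 with ConA+PLL. The difference of 1.39 at 3 h was the largest of the 44, but the ConA level lay under 4.10, and the difference counted from 4.10 was 0.95. Nop2, a methyltransferase of the large subunit rRNA, had levels of 6.27, 6.70, 6.30 and 7.54 on the naive 0 h, ConA, PLL and ConA+PLL 3 h arrays. It was at 6.58, 6.51, 6.50 and 6.94 on the corresponding 24 h arrays, and was higher with ConA+PLL than with ConA by 0.84 and 0.43. Noc3l and the helicase Ddx18 differed by 0.74 and 0.63 at 3 h but by -0.04 and -0.01 at 24 h. A second probe set of Ddx18 gave 0.08 at 3 h and 0.19 at 24 h, so that its order in time depends on the probe set.

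Wdr12 did not follow ConA+PLL at 3 h, unlike its partners Pes1 and Bop1, with which it forms the PeBoW complex of large subunit assembly. Its levels were 5.57 on the naive 0 h array, 5.48 with ConA, 5.81 with PLL and 5.49 with ConA+PLL at 3 h. At 24 h they were 6.61 in naive cells, 6.43 with ConA, 6.56 with PLL and 5.93 with ConA+PLL. Every 24 h level was above every 0 h and 3 h level, and the ConA+PLL array was the lowest of the 24 h arrays. The ConA+PLL minus ConA difference was 0.02 and -0.50 for Wdr12, 0.27 and 0.22 for Pes1, and 0.39 and 0.13 for Bop1, at 3 h and 24 h. Against naive and PLL at 24 h, Bop1 was lower with ConA+PLL (-0.20 and -0.27), as was Wdr12 (-0.68 and -0.63). Pes1 was higher there (0.40 and 0.33).

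**Figure D3:**
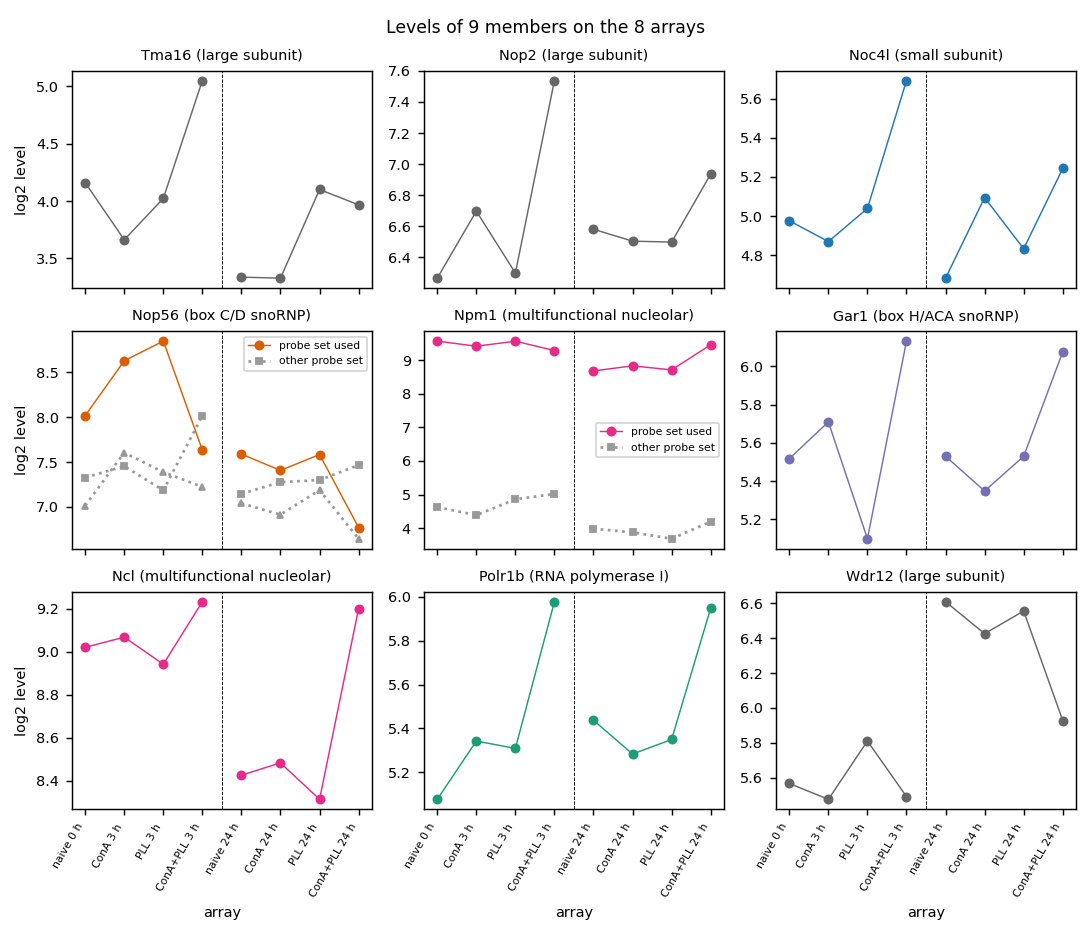
Log2 levels of 9 members on the 8 arrays, with the 0 h and 3 h arrays left of the dashed line and the 24 h arrays right of it; lines only guide the eye, grey symbols are other probe sets of Nop56 and Npm1, and each panel has its own vertical axis. ConA+PLL 3 h is the highest point for Tma16, Nop2, Noc4l, Gar1, Ncl and Polr1b, and the probe sets of Nop56 run in different directions. Wdr12 is high on the naive, ConA and PLL 24 h arrays, and its ConA+PLL 24 h level (5.93) lies just above its PLL 3 h level (5.81).

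Against PLL alone at 3 h the differences were wider. ConA+PLL was higher for 41 of 44 members (42.8% of the filtered genes), with a median of 0.86, by at least 1.5-fold for 33 (6.09%) and by at least 2-fold for 14 (1.59%). The 14 were Noc3l and Heatr1 (1.42 each), Utp20 (1.33), Nop2, Ddx18, Nolc1, Mybbp1a, Rrp1b, Bysl, Gar1, Gnl3, Ltv1, Tma16 and Rrp12 (1.02). Counted from 4.10, Tma16 was at 0.95 and short of 2-fold. Utp20, a scaffold of the early processome, was at 5.34 with PLL and 6.67 with ConA+PLL, beside 6.04 on the naive 0 h array and 6.05 with ConA. Heatr1 was at 6.54 with PLL and 7.96 with ConA+PLL, beside 7.16 and 7.23. For both genes the PLL array was the low one of the 0 h and 3 h arrays and the ConA+PLL array the high one. Nop56, at -1.22, was the 1 member lower by at least 2-fold (1.26% of the filtered genes), and its other probe sets gave 0.83 and -0.16. The second probe set of Ddx18 gave 0.16, short of 2-fold. The handling response genes, some of which also rose with ConA alone, had the same low sum with PLL and high sum with ConA+PLL. Their part was not tested.

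Against the naive 0 h array, ConA+PLL at 3 h was higher for 40 of 44 members (42.7% of the filtered genes), with a median of 0.63. At least 1.5-fold was reached by 25 (4.63%) and 2-fold by 4 (1.03%): Dkc1 (1.39), Nop2 (1.27), Noc3l (1.05) and Nop58 (1.01). Utp14a, at -0.39, had the lowest difference. ConA alone at 3 h had a median of 0.12, with 33 of 44 members above 0 (45.2%). It was at least 1.5-fold higher for 2 members (2.65%), Dkc1 at 0.76 and Nop56 at 0.61, and at least 1.5-fold lower for 1 (2.38%), Utp14a at -0.62. The other probe sets of Nop56 gave 0.13 and 0.59. PLL alone had a median of -0.11, with 14 of 44 above 0 (50.1%), and 4 members were at least 1.5-fold lower (2.88%). These were Utp14a (-0.85), Nop14, Utp20 and Heatr1 (-0.62), all small subunit factors. Nop56 was the 1 member at least 1.5-fold higher (0.83, 3.49% of the filtered genes), and its other probe sets gave -0.14 and 0.37. These 3 comparisons share the naive 0 h array.

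The effect of ConA with PLL (ConA+PLL minus PLL) and that without it (ConA minus naive) share no array. At 3 h the first exceeded the second for 41 of 44 members (47.9% of the filtered genes), with a median of 0.72, and by at least 1 on the log2 scale for 8 (1.66%). The 8 were Tma16 (1.52), Heatr1, Utp20, Nolc1, Noc3l, Mybbp1a, Ltv1 and Utp14a (1.08). Tma16 was under 4.10 on the ConA and PLL arrays, and its value counted from 4.10 was 1.01. Nop56, at -1.83, was the 1 member past 2-fold downward (2.64%), and its other probe sets gave 0.71 and -0.75. The naive array of this comparison is that of 0 h, so culture time enters it. At 24 h, where all arrays match in time, it held for 32 of 44 (59.4%), with a median of 0.31, and reached 1.5-fold for 8 (8.33%), led by Ncl (0.83), Polr1b (0.75) and Gar1 (0.73), and 1.5-fold downward for 1, Nop56 at -0.63 (4.10%). On the other probe sets Nop56 was at 0.04 and -0.42. With each array centred on its filtered genes the median of 0.31 became 0.18.

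At 24 h the members were again higher with ConA+PLL, by less. Against ConA, 37 of 44 were above 0 (61.6% of the filtered genes), with a median of 0.29 where that of the filtered genes was 0.08. With each array centred on its filtered genes the members' median was 0.16. At least 1.5-fold was reached by 6 members (5.19%): Gar1 (0.73), Ncl (0.72), Polr1b (0.67), Tma16 (0.64), Npm1 (0.63) and Ddx21 (0.62). No member reached 2-fold (0.856%). Tma16 lay under 4.10 on both of these arrays, so its difference is not a measured fold. Nop56, at -0.64, was the 1 member at least 1.5-fold lower (1.95%), followed by Wdr12 at -0.50. Its other probe sets put Nop56 at 0.19 and -0.27. Against PLL, 37 of 44 were above 0 (59.0%), with a median of 0.40, and 8 reached 1.5-fold (6.58%), from Ncl at 0.89 to Polr1b at 0.60. Nop56 (-0.81, with 0.17 and -0.54 on its other probe sets) and Wdr12 (-0.63) were the 2 at least 1.5-fold lower (2.21%). The median of 0.40 became 0.26 with centred arrays.

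Against naive cells at 24 h, ConA+PLL was higher for 39 of 44 members (60.1%), with a median of 0.38. That median was 0.24 with centred arrays and 0.12 with the naive 0 h array as control. At least 1.5-fold was reached by 8 (6.70%) and 2-fold by 1, Dkc1 at 1.05 (1.18%). The other 7 were Nhp2 (0.84), Npm1, Ncl, Mybbp1a, Utp14a, Tma16 and Rrp1b, of which Tma16 lay under 4.10 on both arrays. Nop56 (-0.82, with 0.32 and -0.39 on its other probe sets) and Wdr12 (-0.68) were the 2 at least 1.5-fold lower (2.57%). ConA alone was above 0 for 28 of 44 (52.9%) with a median of 0.07 and a range from -0.34 for Bop1 to 0.50 for Dkc1. PLL alone was above 0 for 19 of 44 (50.3%) with a median of -0.03 and a range from -0.33 for Polr1c to 0.76 for Tma16. Tma16 was at 3.34 in naive cells and 4.10 with PLL, so its 0.76 is not a measured fold. The members' share above 0 was thus 63.6% against 52.9% for ConA alone, and 43.2% against 50.3% for PLL alone.

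**Figure D4:**
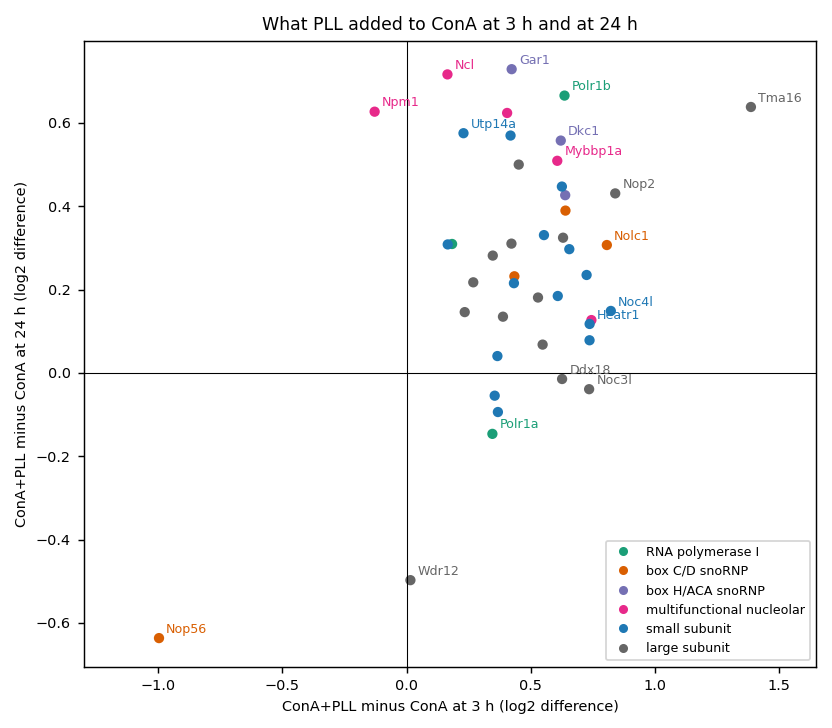
Each point is 1 member, coloured by role; the axes give the log2 difference of ConA+PLL minus ConA at 3 h (horizontal) and at 24 h (vertical), and some members are named. Most points lie right of 0 and above 0, Ncl and Npm1 lie high at the left (0.72 and 0.63 at 24 h), Noc3l and Ddx18 lie near 0 on the vertical axis (-0.04 and -0.01), and Nop56 lies below 0 on both axes.

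Set against time, most members were lower on the later array. ConA+PLL at 24 h minus 3 h was above 0 for 6 of 44 members (64.8% of the filtered genes), with a median of -0.50 where that of the filtered genes was 0.15. A difference of at least 1.5-fold downward was seen for 18 (5.08%) and of 2-fold for 4 (1.61%). The 4 were Gnl3 (-1.20), Bysl (-1.14), Tma16 (-1.08) and Heatr1 (-1.06). Counted from 4.10, Tma16 was at -0.95. With centred arrays the median was -0.80. The 6 above 0 were Wdr12 (0.44), Utp14a, Npm1, Nob1, Dkc1 and Tbl3 (0.04). Naive cells at 24 h minus 0 h were above 0 for 15 of 44 (54.4%), with a median of -0.21, and 8 members were at least 1.5-fold lower (5.91%). These were Npm1 (-0.89), Utp14a, Tma16, Heatr1, Nhp2, Gnl3, Ddx21 and Ncl (-0.59), of which Tma16 was at -0.06 when counted from 4.10. Wdr12 (1.04) and Nip7 (0.66) were the 2 at least 1.5-fold higher (9.12%). The handling response genes, some of which rose with ConA at 3 h, also had lower sums on every 24 h array. Their part was not tested.

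Other genes of the pathway, from lists of genes that are not members, had smaller differences between ConA+PLL and ConA at 3 h. Members and lists were chosen with earlier results of these data known, and the part of that choice in the gap was not tested. Of 40 measured other small subunit factors 34 were above 0, against 47.1% of the filtered genes, with a median of 0.32, and Wdr46, a processome protein, reached 1.04. Of 42 measured other large subunit factors 33 were above 0, with a median of 0.33, and Urb2 (1.20) and Rpf2 (1.12), both large subunit assembly factors in yeast, exceeded 2-fold. The 12 other RNA polymerase I and rDNA transcription genes had a median of 0.07 with 7 above 0, among them Ubtf (0.54), the architectural factor of rDNA. The 10 measured other snoRNP genes had a median of 0.20, and the 11 of the RNA exosome, which trims rRNA precursors, 0.16. The 59 measured cytosolic ribosomal protein genes, whose products the factors assemble, had a median of -0.06 with 23 above 0, near the -0.02 of all filtered genes. The 18 measured aminoacyl-tRNA synthetases, which charge tRNAs and take no part in ribosome assembly, had a median of 0.42 with 16 above 0. At 24 h the medians of these 7 lists were 0.24, 0.11, 0.24, 0.39, 0.17, 0.12 and 0.40, in the order named here. The members' median at 24 h was 0.29, below those of the other snoRNP genes and the synthetases.

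**Figure D5:**
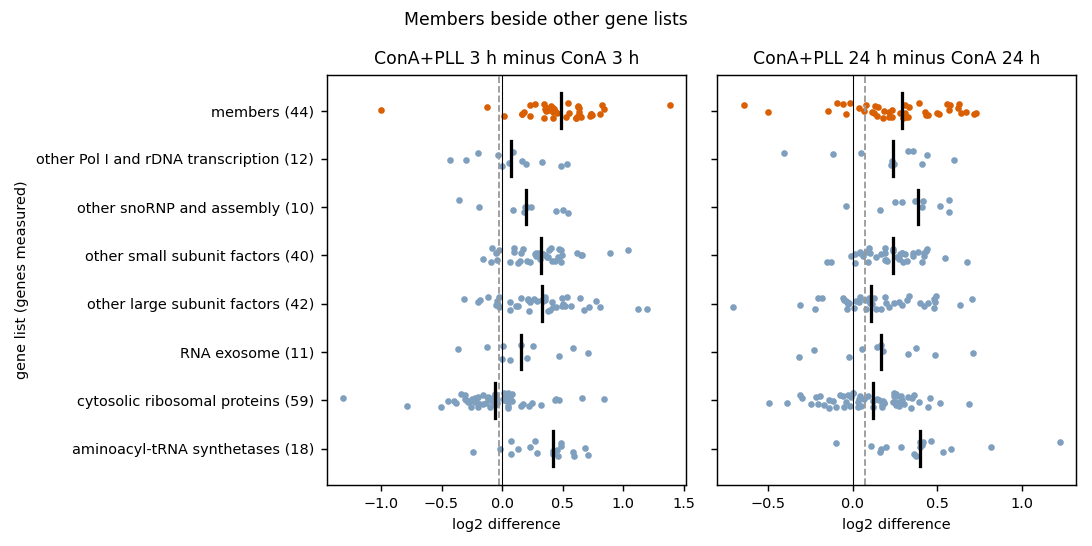
Each point is 1 gene; the horizontal axes give the log2 difference of ConA+PLL minus ConA at 3 h (left) and 24 h (right), black bars are medians, and the dashed line is the median of all filtered genes. The members have a median of 0.49 at 3 h, the cytosolic ribosomal proteins one of -0.06, and the aminoacyl-tRNA synthetases one of 0.42.

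Most members were alike in their course over the 8 arrays. Pearson's r of each member with the median centred profile of the other 43 had a median of 0.85, was at least 0.7 for 33 members and at least 0.9 for 16, and was highest for Ftsj3 (0.97), an rRNA methyltransferase, and Mybbp1a (0.96). It was below 0 for Wdr12 (-0.71) and Nop56 (-0.13). These values rest on only 8 arrays, and 36 members share their highest array. The share of all filtered genes that reach these r thresholds was not counted, so the counts of 33 and 16 have no background. Among genes outside the list that passed the filter and had a range of at least 1, those most like the median profile of the members were Cd274 (r = 0.99), Rgs16 and Zdhhc13 (0.98 each), Slc7a5 (0.98), a subunit of an amino acid transporter, and Ipo4 (0.98), a nuclear import receptor.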

How the data were processed

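Per the study's methods, the authors labelled and hybridised cDNA from total RNA and normalised the arrays by the robust multi-array average, and the deposited values were read as log2 levels per probe set. The table does not state the log base. The sources used here do not give the genome build, the software version or the set of arrays normalised together. It held 41345 probe sets on 8 arrays with 0 missing values, and no further scaling was applied. Groups came from the sample labels.

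Gene names came from the platform annotation, with 1 symbol for 23521 probe sets, several for 1820 and none for 16004. A match to RefSeq (GRCm38.p6) by Entrez identifier, found for 23328, altered 0 names. Only probe sets with 1 symbol were used, which leaves out Fbl and Tsr1, and Npm3 was not analysed here. The brightest probe set was kept per gene, and 5 members had several.

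Differences between arrays were counted above 0, at 1.5-fold and at 2-fold, beside the same shares of the 13428 filtered genes. No test was made, since each group holds 1 array, and precision is limited by that number. Levels on all arrays were printed for the 3 members with the largest and the 2 with the smallest ConA+PLL minus ConA difference at each time, and for 1 more member of each role not yet covered. Other members shown in full were chosen after their values were seen. The members, lists and these rules were chosen with earlier results of these data known. Alternatives were quantile normalisation, centring, the mean of all probe sets, a brighter filter, the mean over members, other control arrays, a filter on the mean or none, and a 1.5-fold threshold. Scripts (Python 3.11.15, numpy 2.4.6, pandas 2.3.3, matplotlib 3.10.9) were tested on simulated data.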

Additional observations from a re-analysis of the deposited data

Results flagged for a closer look

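Nop56 had a ConA effect of opposite sign with and without PLL at 3 h. ConA+PLL minus PLL was -1.22 (7.63 against 8.85), while ConA minus naive was 0.61 (8.63 against 8.02), each on 1 array per group. The difference between these effects was not tested. The 2 other probe sets of Nop56 gave 0.83 and 0.13, and -0.16 and 0.59, for the same differences, so 1 of them had opposite signs too and 1 did not.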

How the results depend on the processing

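No paired analysis was possible because each group holds 1 array, and for the same reason no replicate could be left out. Of 75 alternative values of the members' median difference, 59 differed by at most 0.1 from the value reported, 14 by more and 2 changed sign. Quantile normalisation gave 0.27 for ConA+PLL minus naive and 0.29 for ConA+PLL minus PLL at 24 h, and 0.61 for the ConA effect on PLL over that off PLL at 3 h. Centring each array on its filtered genes gave 0.97 for ConA+PLL minus PLL at 3 h, 0.24, 0.16 and 0.26 for ConA+PLL minus naive, ConA and PLL at 24 h, -0.80 for ConA+PLL at 24 h minus 3 h, and 0.18 for the ConA effect on PLL over that off PLL at 24 h. The mean over members in place of the median gave 0.76 for ConA+PLL minus PLL at 3 h and 0.0025 for PLL minus naive at 24 h, against -0.03. With the PLL 3 h array as control, ConA and ConA+PLL at 3 h had 0.32 and 0.86. With the naive 0 h array as control, ConA, PLL and ConA+PLL at 24 h had -0.089, -0.19 and 0.12, the first against 0.07. A 1.5-fold threshold gave 19 members higher with ConA+PLL than with ConA at 3 h and 6 at 24 h, against 1 and 0 at 2-fold. The mean of both probe sets of Npm1 gave 0.25 for ConA+PLL minus ConA at 3 h in place of -0.13. Each other probe set on its own, an alternative added after seeing the data, gave 0.63 for Npm1 and 0.56 for Nop56 at 3 h, and 0.19 for Nop56 and 0.19 for Ddx18 at 24 h, opposite in sign to the probe set used. The cause of these changes was not tested. No error can be set on any value, and levels near 4.10, as in Tma16 and Bysl, are at the upper edge of what receptor genes not known in T cells reached.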
